A study of Mus musculus with 8 samples.

Results

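The genes described here set a single mouse pro-B cell line, CBE line 1, apart from 3 other pro-B lines profiled with it. A gene was taken when both line 1 libraries lay above, or both lay below, all 6 other libraries on the log2(FPKM + 1) scale, where FPKM is a count of fragments adjusted for transcript length and library size. Of 22821 genes outside chromosomes X and Y, 993 lay above (4.35%) and 872 lay below (3.82%), 1865 in all. Of these, 691 and 629 passed the level filter of the test across genes (at least 2 libraries with an FPKM of 1 or more), and 302 and 243 did not. All lines came from bone marrow of strain 129SV and were grown untreated. CBE-/- (1) and CBE-/- (2), called line 1 and line 2 below, both carry the genotype IGCR1-/-, the WT line is wild type, and the Eµ-/- line lacks the intronic heavy chain enhancer. Each line gave 2 libraries of poly(A) RNA. Genotype and line cannot be told apart for WT and Eµ-/-, which are 1 line each, while line 1 and line 2 share a genotype, so a difference between them is one between lines. Whether the 2 libraries of a line were separate cultures is not said in the labels, and p-values here rest on the spread of libraries alone, which may be technical.

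Pro-B cells are the bone marrow precursors that join V, D and J segments into a heavy chain gene. IGCR1 lies between the V segments and the D segments, and its CTCF-binding elements (CBEs) insulate them, and Eµ is the enhancer between the J segments and the constant region. Lines established and grown apart can differ at genes that have no link to a deleted element, and the pair of IGCR1-/- lines lets that be seen.

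Line 1 kept the defining genes of the pro-B stage. Of 14 pro-B markers, 13 stood at 1 FPKM or more in both line 1 libraries and Kit was listed at 0 in all 8 libraries. Their summed level was 5295 and 5609 FPKM in line 1 and 4045 to 5631 in the 6 other libraries. Of the T cell markers 1 of 10 reached 1 FPKM in both line 1 libraries (sums 52.0 and 37.1 against 17.1 to 82.3), with Cd3e, Cd3g, Cd4, Cd8a and Bcl11b at 0. Of the myeloid markers 3 of 10 did (sums 10.9 and 8.69 against 4.14 to 8.86), with Elane, Cd14, S100a8 and S100a9 at 0. No erythroid, NK or megakaryocyte marker did, and among stromal and dendritic markers 1 each did, with the collagen genes at 0. Library depth, as implied by the deposited intervals, was 43.4 and 31.3 M reads in line 1 and 32.7 to 49.5 M elsewhere. Across genes the line 1 libraries correlated with each other at r = 0.978, the lowest of the 4 same-line pairs (0.978 to 0.992), and with libraries of other lines at 0.929 to 0.964.

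Line 1 had the fewest genes outside the range of the other lines. By the same rule, 1320 tested genes set line 1 apart, against 1659 for the Eµ-/- line, 1922 for line 2 and 3276 for WT. The rule asks both libraries of a line to lie outside the rest, so these counts also depend on how closely the 2 agree. In the same order of lines, the correlation of the 2 libraries was 0.9782, 0.9795, 0.9911 and 0.9916. The share of this in the order of the counts was not tested, so the order is no measure of how distinct a line is. The gap to the nearest other library was small for most members, with a median of 0.11 above and 0.0901 below on the log2 scale. At the edge of the rule the narrowest gaps were 5.10e-05 above and 1.88e-05 below, and the nearest genes outside it had gaps of -2.59e-05 and 0 (a tie). Only 121 members above and 52 below had a gap of 0.5 or more. For the tested members above, the nearest other library belonged to the Eµ-/- line for 255, to line 2 for 251 and to WT for 185. For those below it belonged to the Eµ-/- line for 266, to line 2 for 228 and to WT for 135. The line 1 libraries differed by 1 or more on the log2 scale for 5 tested members above (0.724%) and 3 below (0.477%). Of all tested genes 224 did (2.21%). The rule itself favours genes whose line 1 values agree, so these shares are no measure of how reliable the members are.

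In a limma fit with 4 lines as groups, line 1 was set against the equal-weight mean of the other 3. Of 10146 tested genes, 670 (6.60%) were higher in line 1 and 598 (5.89%) lower at an adjusted p under 0.05, 1268 (12.5%) in all. The members were chosen on this contrast, so the counts of them are a description: 396 of 691 above and 318 of 629 below passed. A further 274 higher and 280 lower calls fell on genes whose line 1 values overlapped another line. With the replicate number as a block, 1038 were higher and 961 lower. With the 6 other libraries as 1 group, so that their spread held the differences between lines, only 27 and 13 were called. Leaving out 1 library lowered the higher calls to between 329 and 417 for any WT, line 1 or line 2 library (417 without WT replicate 1, 377 without WT replicate 2, 329 and 356 without line 1 replicate 1 or 2, 385 and 371 without line 2 replicate 1 or 2). The lower calls then numbered 311, 297, 256, 438, 300 and 295. Against line 2, the line of the same genotype, 507 (5.0%) were higher and 524 (5.16%) lower, and with the replicate block 835 and 838. Without line 2 replicate 1 these were 134 and 139, without line 2 replicate 2 126 and 116, and without line 1 replicate 1 281 and 288. Without line 1 replicate 2 the higher calls against line 2 were 284, without WT replicate 1 they were 317 with 348 lower, and without WT replicate 2 they were 316 with 343 lower. Against WT, 1085 (10.7%) were higher and 869 (8.56%) lower, and against the Eµ-/- line 597 (5.88%) and 399 (3.93%). In either direction that is 10.2% of tested genes against line 2, 19.3% against WT and 9.82% against the Eµ-/- line. These comparisons share the line 1 libraries and are not independent.

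The clearest members were genes present in line 1 and near 0 in the 6 other libraries. With 1 FPKM or more in both line 1 libraries and under 0.5 in all others, limits chosen after the values were seen, 30 genes were on in line 1. S100a11, which codes for a calcium-binding S100 protein (mm9 chromosome 3, 93324417 to 93330210), stood at 21.1 and 22.7 FPKM in line 1. It stood at 0.0914 and 0.201 in WT, 0.118 and 0.244 in line 2 and 0.0557 and 0.205 in the Eµ-/- line, a difference of 4.31 (SE 0.09) on the log2(FPKM + 1) scale. Tmem98, which codes for a transmembrane protein (mm9 chromosome 11, 80623916 to 80635535), stood at 16.3 and 15.3 FPKM in line 1, was listed at 0 in both WT libraries and reached at most 0.0282 in the others. For both genes the line 1 libraries lay close together and far from every other value. In bulk RNA, a gene on in more cells and more of its RNA per cell cannot be told apart. The 250 bases before the RefSeq start of each gene (GRCm38.p6, plus strand, chr3:93520246-93520495 and chr11:80810116-80810365) are shown because these 2 genes had the widest gap among switched-on genes once the short RNA loci Mir1894 and Mir704 are left out, with CG pairs in capitals.
S100a11: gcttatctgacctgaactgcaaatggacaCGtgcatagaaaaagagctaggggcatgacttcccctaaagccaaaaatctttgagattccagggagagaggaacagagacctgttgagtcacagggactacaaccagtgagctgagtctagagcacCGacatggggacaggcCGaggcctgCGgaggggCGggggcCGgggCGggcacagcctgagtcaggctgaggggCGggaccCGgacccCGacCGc
Tmem98: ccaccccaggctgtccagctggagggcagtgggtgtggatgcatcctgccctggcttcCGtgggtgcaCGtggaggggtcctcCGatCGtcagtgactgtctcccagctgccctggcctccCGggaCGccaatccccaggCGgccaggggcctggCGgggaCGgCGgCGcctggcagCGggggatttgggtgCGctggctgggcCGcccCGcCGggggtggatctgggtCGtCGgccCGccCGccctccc
These windows hold 11 and 20 CG pairs, against a median of 17 over the 8086 tested genes with a RefSeq window and 6 over all 27025 genes of the table. Over the 21 of 30 switched-on genes with a window the median was 6, with a range of 1 to 37. No methylation was measured, and the letters say nothing of the state of these promoters.

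Other genes on in line 1 belong to cell surface, cilium and metabolic biology rather than to a single pathway. Prss12, the secreted protease neurotrypsin, stood at 5.53 and 5.48 FPKM in line 1 and at 0 to 0.0887 in the rest. Fxyd2, a regulatory subunit of the sodium pump, stood at 3.38 and 3.11 FPKM against 0 to 0.0459. Dzip1, a zinc finger protein of the primary cilium, stood at 2.47 and 2.72 FPKM against 0 to 0.0165. Each of these 3 genes was at a like level in both line 1 libraries. Sirpa, the inhibitory receptor for CD47 known from myeloid cells, stood at 3.67 and 3.94 FPKM in line 1, 0.426 and 0.327 in WT, 0.159 and 0.0769 in line 2 and 0.00599 and 0.00976 in the Eµ-/- line. P2ry13, an ADP receptor whose locus lies within Med12l, stood at 2.53 and 3.56 FPKM against 0.0893 to 0.497. Cd300lh, a CD300-family immunoglobulin-like receptor, stood at 6.85 and 21.3 FPKM against 0.0108 to 0.088, and its neighbour Gm11710 at 11.6 and 35.7 against 0.0138 to 0.126. Line 1 replicate 2 was about as far above replicate 1 for Cd300lh as for Gm11710, so the level of this pair in line 1 is known less well than its presence. Sult1d1, a sulfotransferase, likewise stood at 4.41 and 1.09 FPKM, and at 0 to 0.138 elsewhere. Mir1894, Mir704 and Snora26 were also on in line 1 only by this rule, at 25.2 and 35.8, 15.5 and 22, and 7.71 and 2.41 FPKM. They are short loci of 81, 77 and 121 bases inside Ppp1r10, Pdia4 and Dancr, so reads of the longer gene cannot be told apart from theirs.

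A pair of switched-on genes act in glycolysis and the hypoxia response. Aldoc, the aldolase C enzyme, stood at 6.24 and 9.36 FPKM in line 1 and at 0.165 to 0.294 in the 6 others. Egln3, a prolyl hydroxylase that marks HIF alpha subunits for destruction, stood at 1.90 and 2.05 FPKM against 0 to 0.0216. Of the 25 tested genes of the glycolysis and hypoxia list, 5 were higher and 0 lower in limma (7 and 1 at an unadjusted p under 0.05), with a median difference of 0.20 on the log2 scale, and 3 were higher with WT left out of the mean. Across all tested genes 6.60% were higher, and the median was -0.00185. The other 3 called genes overlapped another line. Pfkm, a muscle phosphofructokinase, stood at 8.10 and 8.38 FPKM in line 1 and 11.6 and 8.80 in the Eµ-/- line, and Slc2a3, a glucose transporter, at 8.76 and 11.5 and at 15.5 and 18.1.

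Several strong members were expressed in every mutant line but most in line 1. Cyp4f18, which hydroxylates leukotriene B4, stood at 140 and 160 FPKM in line 1, 51.1 and 50.4 in line 2, 29.6 and 49.0 in the Eµ-/- line and 0.816 and 0.416 in WT (difference 3.35, SE 0.19). Clnk, an adaptor of immune receptor signalling, stood at 6.14 and 7.54 FPKM in line 1, 1.6 and 1.41 in line 2, 0.401 and 0.935 in the Eµ-/- line and 0.0160 and 0 in WT. Both genes ran in the order line 1, line 2, Eµ-/-, WT, although for Cyp4f18 the second Eµ-/- library came close to line 2. Ctnna1, the alpha catenin that links cadherins to actin, stood at 39.2 and 35.6 FPKM in line 1, 24.0 and 20.2 in line 2, 14.2 and 14.8 in the Eµ-/- line and 0.0190 and 0.0199 in WT. Cd97, an adhesion G protein-coupled receptor, stood at 19.9 and 18.3 FPKM in line 1, 11.6 and 16.8 in the Eµ-/- line, 3.06 and 2.91 in line 2 and 0.470 and 0.351 in WT. For both genes the widest of the 3 differences was that from WT. Ctnna1 lies on chromosome 18, which is described below. Jun, the AP-1 subunit, stood at 28.2 and 28.6 FPKM in line 1, 20.2 and 22.4 in the Eµ-/- line, 10.3 and 12.8 in line 2 and 2.80 and 2.33 in WT. Ly6d, a surface protein of B-committed progenitors, stood at 48.4 and 86.4 FPKM in line 1, 19.4 and 14.7 in line 2, 14.1 and 4.57 in WT and 3.50 and 1.99 in the Eµ-/- line (difference 2.96, SE 0.41). Among these 6 genes the libraries of a line differed most for Ly6d, yet the lowest line 1 value was still above the highest other.

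**Figure D1:**
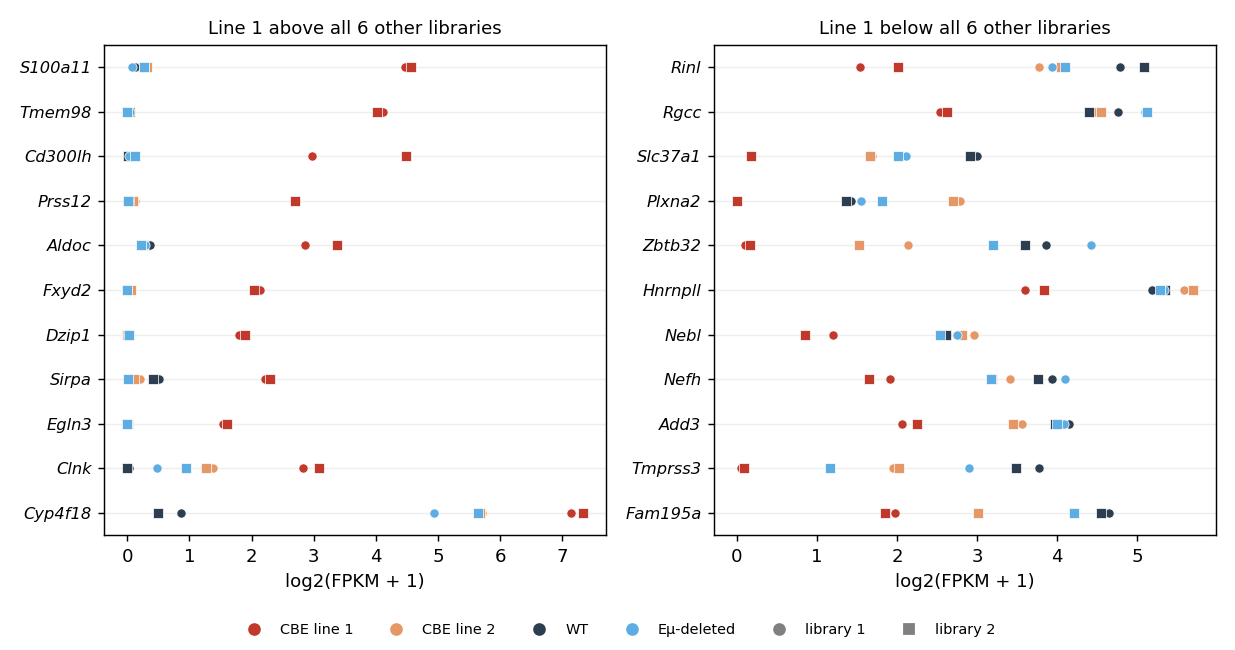
Level of the 11 named members above and the 11 below with the widest gap, as log2(FPKM + 1) on the horizontal axis, 1 row a gene and 1 point a library (circles library 1, squares library 2). The red line 1 points stand apart from the 6 others in every row by the rule that chose the genes, and S100a11 and Tmem98 stand apart from values near 0.

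Fewer genes were off in line 1 alone. By the mirror limits, 9 genes stood under 0.5 FPKM in both line 1 libraries and at 1 or more in the 6 others. These limits ask for expression in 3 lines at once, those for genes on in line 1 only, so the counts of 9 and 30 are not like for like. Neither count was made for another line. Plxna2, a semaphorin receptor, was listed at 0 in both line 1 libraries and stood at 1.69 and 1.57 FPKM in WT, 5.89 and 5.50 in line 2 and 1.92 and 2.50 in the Eµ-/- line. Zbtb32, a zinc finger repressor of lymphocytes, stood at 0.0758 and 0.119 FPKM in line 1, 13.5 and 11.1 in WT, 3.38 and 1.87 in line 2 and 20.4 and 8.18 in the Eµ-/- line. Igf2bp2, an RNA-binding protein, stood at 0.118 and 0.224 FPKM in line 1 and at 1.10 to 2.47 in the others. The remaining 6 were Slc37a1, Tmprss3, Elovl4, Gpr161, Car5a and Cdon, of which Car5a overlaps BC048644.

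Tmprss3 and Slc37a1 are the ends of a stretch of 4 neighbouring tested genes on chromosome 17 (mm9 31316211 to 31487643) that all lay below. Tmprss3, a membrane-bound serine protease, stood at 0.0366 and 0.0630 FPKM in line 1, 12.6 and 10.1 in WT, 2.85 and 3.05 in line 2 and 6.45 and 1.23 in the Eµ-/- line. Ubash3a, a phosphatase-like brake on T cell receptor signalling, stood at 0.00481 and 0.00683 FPKM in line 1, 11.2 and 11.1 in WT and 0.109 to 0.304 in the rest. Ubash3a thus passed the level filter through WT alone, and line 1 differed from line 2 and the Eµ-/- line only among values near 0. Rsph1, a radial spoke protein of cilia, was listed at 0 in line 1 and stood at 5.06 and 3.03 FPKM in WT, 0.574 and 0.698 in line 2 and 2.78 and 1.62 in the Eµ-/- line. Slc37a1, a sugar phosphate transporter, stood at 0.131 and 0.127 FPKM in line 1, 7.01 and 6.5 in WT, 2.21 and 2.17 in line 2 and 3.33 and 3.04 in the Eµ-/- line. All 4 genes were highest in WT and lowest in line 1.

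Of 7 further genes below, 5 were still expressed in line 1, and Gpr132 and Cd28 were near 0. Rinl, a Rab exchange factor, stood at 1.89 and 3.02 FPKM in line 1, 26.6 and 33.0 in WT, 12.7 and 15.5 in line 2 and 14.3 and 16.1 in the Eµ-/- line (difference -2.52, SE 0.16). Rgcc, a regulator of the cell cycle, stood at 4.82 and 5.17 FPKM in line 1 and at 20.0 to 33.8 elsewhere. Hnrnpll, an RNA-binding regulator of lymphocyte splicing, stood at 11.1 and 13.2 FPKM in line 1 and at 35.4 to 50.7 in the others, which lay near one another. Mtx2, the mitochondrial import protein metaxin 2, stood at 21.4 and 21.6 FPKM against 43.6 to 64.3, and Add3, the membrane skeleton protein gamma adducin, at 3.16 and 3.76 against 9.92 to 16.7. For these 5 genes the 6 other libraries lay nearer to one another than to line 1 on the log2(FPKM + 1) scale. In FPKM that did not hold for Rinl and Add3. Gpr132, a proton-sensing receptor, stood at 0.0592 and 0.0588 FPKM in line 1, 0.588 and 0.578 in line 2, 1.58 and 1.25 in WT and 5.39 and 5.47 in the Eµ-/- line. Cd28, the T cell costimulatory receptor, was listed at 0 and 0.00457 FPKM in line 1, and it stood at 5.49 and 4.07 in WT and 0.0344 to 0.730 in the rest.

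The members were not spread evenly over the chromosomes. On chromosome 18, found by a scan of all 19 autosomes, 100 of 255 tested genes lay above the 6 other libraries (39.2%, against 6.81% of all tested genes) and 2 lay below (0.784%, against 6.20%). In the limma fit 96 of the 255 were higher (37.6%) and 13 lower (5.1%). The median difference of the 255 was 0.36 on the log2 scale, the middle part of them ran from 0.21 to 0.49, and 225 (88.2%) were above 0. The medians were 0.37 in both line 1 libraries. Under the alternatives run, the median stayed between 0.28 and 0.47. The number called higher was 37 without line 1 replicate 1 and 56 without line 1 replicate 2. It was 52 and 53 without WT replicate 1 or 2, 50 and 53 without line 2 replicate 1 or 2, 152 with the replicate block, and 3 with the 6 other libraries as 1 group. The number called lower was 4 without either line 1 library and 6 or 7 without a WT or line 2 library.

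Chromosome 18 also differed among the other lines. The median of line 1 minus line 2 was 0.47, of line 1 minus the Eµ-/- line 0.45, and of line 1 minus WT 0.14. Each line against the mean of the other 3 gave 0.36 for line 1, 0.17 for WT, -0.26 for line 2 and -0.25 for the Eµ-/- line. With the 255 genes cut into 8 stretches along the chromosome, line 1 minus line 2 had medians of 0.44 to 0.52 and line 1 minus the Eµ-/- line 0.35 to 0.53 in every stretch. Line 1 minus WT had medians of 0.57, 0.14, 0.27, 0.02, 0.15, 0.10, 0.10 and -0.02 in stretches 1 to 8. Stretch 1 held 22 of the members above among 32 genes. Of the 255, 102 were higher and 9 lower than in line 2, against 5.0% and 5.16% of all tested genes. Against the Eµ-/- line 106 were higher and 7 lower (5.88% and 3.93% of all), and against WT 51 and 14 (10.7% and 8.56% of all). DNA copy number was not measured.

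Of the 28 runs of 3 or more neighbouring tested genes that all lay on 1 side, 22 were above, and 9 of those were on chromosome 18. The longest there had 7 genes, among them Ccny, Thoc1, Usp14, Esco1, Snrpd1 and Mib1. Esco1, a cohesin acetyltransferase, stood at 10.6 in both line 1 libraries and at 7.09 to 10.1 in the others. Further along the chromosome, Ticam2, a Toll-like receptor adaptor, stood at 10.1 and 9.40 FPKM in line 1, 2.18 and 2.01 in WT, 4.97 and 4.48 in line 2 and 5.60 and 6.07 in the Eµ-/- line. Psmg2, a proteasome assembly chaperone, stood at 101 and 92.9 in line 1, 92.5 and 92.7 in WT and 47.0 to 63.9 in the rest. Thus Ticam2 was set apart from all 3 lines, while Psmg2 was set apart from WT by less than the difference between the line 1 libraries. Pmaip1, the BH3-only protein Noxa of chromosome 18, stood at 6.39 and 6.40 FPKM in line 1, 4.87 and 6.27 in line 2, 3.92 and 6.37 in the Eµ-/- line and 0.00900 and 0 in WT.

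**Figure D2:**
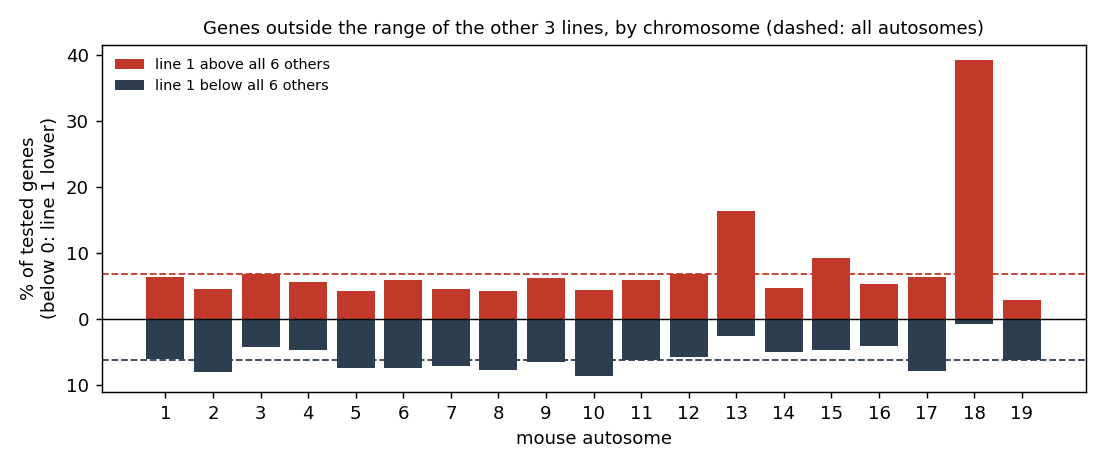
Percent of tested genes on each autosome whose line 1 libraries both lie above (red, upward) or both below (dark, downward) the 6 other libraries, with the values over all autosomes as dashed lines. Chromosome 18 reaches 39.2% upward and 0.784% downward, and chromosome 13 reaches 16.3% upward.

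**Figure D3:**
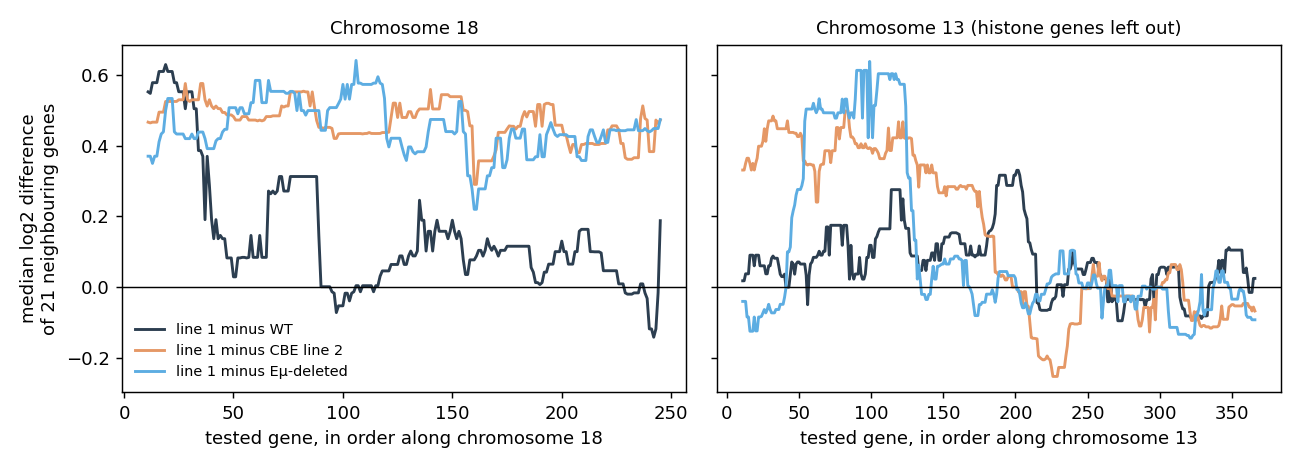
Running median over 21 neighbouring tested genes of line 1 minus WT, minus line 2 and minus the Eµ-/- line (log2 FPKM + 1), by gene order on chromosomes 18 and 13, the latter without its histone genes. On chromosome 18 the differences from line 2 and the Eµ-/- line stay above 0 throughout, and that from WT is largest among the first genes.

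Chromosome 13 came next, with 69 of 423 tested genes above (16.3%). It carries the largest histone gene cluster, and without histone genes 40 of 376 lay above (10.6%), with 46 called higher. In 8 stretches of these 376 genes, stretches 2 and 3 had medians of 0.32 and 0.29 and held 28 of the 40 members. Line 1 minus WT was 0.07 and 0.14 there, line 1 minus line 2 0.42 and 0.37, and line 1 minus the Eµ-/- line 0.49 and 0.39. Stretches 6 to 8 had medians of 0.03, -0.05 and 0.02. Kif13a, a kinesin motor in stretch 3, stood at 4.70 and 5.03 FPKM in line 1, 2.12 and 2.44 in WT, 1.46 and 1.40 in line 2 and 2.18 and 2.82 in the Eµ-/- line. On chromosome 19, where WT stood apart (median 0.42 against the other 3 lines), line 1 had 11 of 385 tested genes above (2.86%) and 24 below (6.23%).

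Among the 30 gene lists examined, that of the replication-dependent histones held the most members. Their products package newly made DNA in S phase, and most of their mRNAs end in a stem-loop and lack a poly(A) tail, so that a poly(A) library holds only a small, variable part of them. Of 57 tested genes 29 were higher in line 1 and 0 lower in limma (35 and 0 at an unadjusted p under 0.05), with a median difference of 0.64, and 29 lay above all 6 others. Over all tested genes 6.60% were higher, 5.89% lower and 6.81% above all others. By place, 28 of the 47 genes of histone cluster 1, on chromosome 13, were higher. So were 1 of 7 in cluster 2, 0 of 2 in cluster 3 and 0 of 1 in cluster 4. All 29 members above were in cluster 1. By family, 12 of 15 H2B, 8 of 13 H4, 7 of 10 H3, 1 of 5 H1 and 1 of 14 H2A genes were higher. The H2A median was -0.09, that of H2B 0.96. Summed over the 14 H2A genes, line 1 stood at 85.9 FPKM in replicate 1 and 158 in replicate 2, against 107 to 150 in the others. The line 1 libraries thus lay on opposite sides of the others for H2A, and its median near 0 averages them. Hist1h4d stood at 12 and 10.4 FPKM in line 1, 4.54 and 3.54 in WT, 6.24 and 4.58 in line 2 and 3.44 and 3.37 in the Eµ-/- line (difference 1.23, SE 0.13). Hist1h2bj stood at 6.40 and 4.26 FPKM in line 1 and at 1.25 to 2.73 in the others. Summed over the 57 genes, the level was 262 and 300 FPKM in line 1 and 180 to 240 elsewhere. Of the 14 genes with a mean of 5 FPKM or more, 12 are H2A genes, 1 was called, and the median was -0.09.

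The number of histone genes called moved with single libraries. It was 6 without line 1 replicate 1, 15 without WT replicate 1 or 2, 18 and 13 without line 2 replicate 1 or 2, 34 with the replicate block and 1 with the 6 other libraries as 1 group. Many of these genes are near-identical copies whose reads can be shared between them, so single values are uncertain. No member was among the 29 tested genes of the DNA replication list, of which 0 were higher and 0 lower in limma (1 and 0 at an unadjusted p under 0.05, median 0.03). Of 25 mitosis genes 1 was higher, Kif20a, and 0 lower in limma (7 and 0 at an unadjusted p under 0.05). The 250 bases before the RefSeq starts of Hist1h4d (RefSeq H4c4, chr13:23581318-23581567) and Hist1h2bj (H2bc11, chr13:22042948-22043197), both GRCm38.p6 and plus strand, are shown as members that moved together, with CCAAT and TATAAA on either strand in capitals.
Hist1h4d: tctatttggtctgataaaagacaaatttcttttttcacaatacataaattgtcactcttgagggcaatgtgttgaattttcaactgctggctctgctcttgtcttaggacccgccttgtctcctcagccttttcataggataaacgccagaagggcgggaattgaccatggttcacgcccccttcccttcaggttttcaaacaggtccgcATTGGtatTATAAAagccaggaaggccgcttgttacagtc
Hist1h2bj: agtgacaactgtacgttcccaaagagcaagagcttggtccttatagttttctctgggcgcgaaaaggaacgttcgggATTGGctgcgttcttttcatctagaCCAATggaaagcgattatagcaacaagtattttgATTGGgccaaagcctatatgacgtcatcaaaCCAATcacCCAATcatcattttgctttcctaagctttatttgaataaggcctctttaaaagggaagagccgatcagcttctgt
CCAAT was found in 42 of the 52 tested histone genes with a window (80.8%) and in 34.5% of all windows of the table, and TATAAA in 26 (50.0%) and 13%. The pair of motifs do not share letters.

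**Figure D4:**
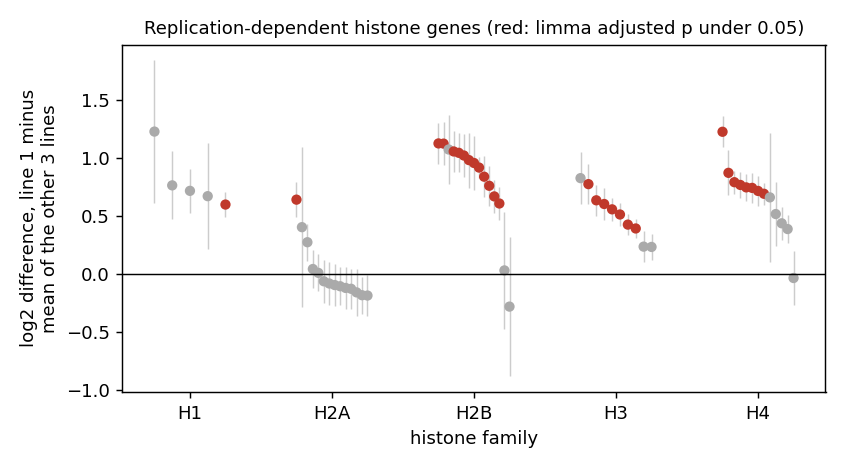
Difference in log2(FPKM + 1) between line 1 and the mean of the other 3 lines for 57 histone genes by family, with bars for 1 SE and red for a limma adjusted p under 0.05. H2B, H3 and H4 genes lie mostly above 0, and 12 of the 14 H2A genes are not red and near 0.

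Guanylate-binding proteins and immunity-related GTPases made up 2 further runs. These interferon-inducible enzymes attack the vacuoles of intracellular microbes and are switched on by interferon signalling. On chromosome 3 (mm9 142193299 to 142300972) all of Gbp7, Gbp3, Gbp2b and Gbp2 lay above. Gbp2 stood at 32.6 and 31.2 FPKM in line 1, 6.01 and 5.30 in WT, 12.9 and 14.2 in line 2 and 10.2 and 12 in the Eµ-/- line (difference 1.65, SE 0.09). Gbp2b stood at 26 and 26.9 FPKM in line 1, 4.76 and 4.59 in WT, 7.48 and 9.32 in line 2 and 9.20 and 12.7 in the Eµ-/- line (1.68, SE 0.13). Gbp3 stood at 77.1 and 74.3 FPKM in line 1 against 29.2 to 54.8, and Gbp7 at 96.5 and 98.3 against 36.8 to 65.9. In all 4 genes WT was lowest and the line 1 libraries agreed closely. On chromosome 11 (mm9 57997344 to 58036285) Gm12250, Igtp and Irgm2 lay above. Igtp stood at 20.1 and 18.3 FPKM in line 1, 7.41 and 5.98 in WT, 10.5 and 11 in line 2 and 7.40 and 6.37 in the Eµ-/- line (1.18, SE 0.10). Irgm2 stood at 4.53 and 6.89 FPKM against 1.75 to 4.23, a narrow gap. Iigp1, a tested immunity-related GTPase gene on chromosome 18, was no member. Its line 1 level was below WT (-1.45 on the log2 scale) and near line 2 (-0.00728) and the Eµ-/- line (0.0526).

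**Figure D5:**
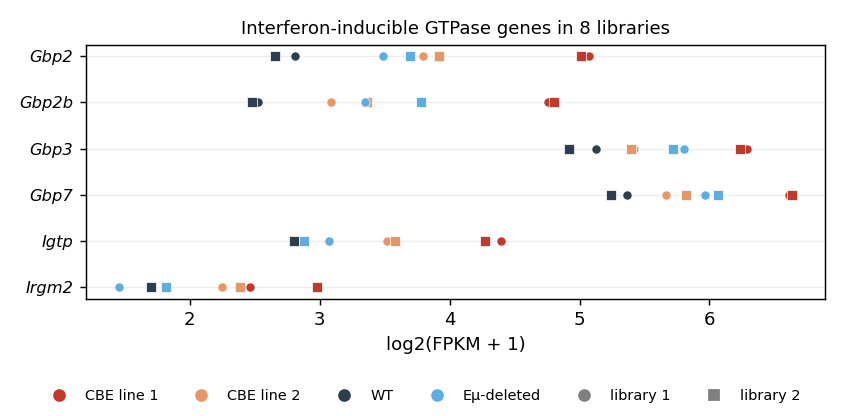
Level of 6 interferon-inducible GTPase genes as log2(FPKM + 1) on the horizontal axis, 1 point a library. The red line 1 points are rightmost in each row, and in Irgm2 the first line 1 library lies just right of line 2.

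The 250 bases before the RefSeq starts of 4 of these genes (GRCm38.p6, plus strand, chr3:142620413-142620662, chr3:142594597-142594846, chr11:58199306-58199555 and chr11:58214727-58214976) are printed because the genes moved together. Capitals mark GAAA followed by any 2 bases and GAAA, the core of interferon-stimulated response elements, and TTCNNNGAA, the core of STAT-binding sites, on either strand.
Gbp2: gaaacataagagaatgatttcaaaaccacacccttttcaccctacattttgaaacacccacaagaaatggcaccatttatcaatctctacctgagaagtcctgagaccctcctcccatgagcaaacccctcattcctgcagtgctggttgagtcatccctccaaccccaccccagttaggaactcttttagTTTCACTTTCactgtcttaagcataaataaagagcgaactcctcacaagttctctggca
Gbp2b: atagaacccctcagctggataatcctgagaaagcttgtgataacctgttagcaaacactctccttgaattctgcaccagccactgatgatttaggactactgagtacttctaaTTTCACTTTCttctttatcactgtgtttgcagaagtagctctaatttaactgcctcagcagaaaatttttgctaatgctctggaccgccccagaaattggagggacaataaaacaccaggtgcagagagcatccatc
Igtp: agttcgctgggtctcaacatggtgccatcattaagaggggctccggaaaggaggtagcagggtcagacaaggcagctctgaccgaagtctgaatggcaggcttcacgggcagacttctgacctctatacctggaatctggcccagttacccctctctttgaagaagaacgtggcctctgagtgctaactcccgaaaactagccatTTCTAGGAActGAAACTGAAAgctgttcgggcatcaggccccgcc
Irgm2: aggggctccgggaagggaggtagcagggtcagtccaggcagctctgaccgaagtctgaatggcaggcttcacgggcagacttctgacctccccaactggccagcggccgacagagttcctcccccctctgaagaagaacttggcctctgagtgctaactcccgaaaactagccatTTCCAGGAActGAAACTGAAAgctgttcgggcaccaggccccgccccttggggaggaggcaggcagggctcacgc
The first of these was found in the windows of 6 of 6 named GTPase genes and in 3.04% of all 27025 windows, and TTCNNNGAA in 3 of 6 (50.0%) and 7.18%. In Gbp2 and Gbp2b the first motif reads on the opposite strand, and in Igtp and Irgm2 both motifs stand side by side without sharing letters. Long stretches of the Igtp and Irgm2 windows hold the same letters, so the matches in these genes are not independent of each other. A match is a description of these letters and not a measured binding site.

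The wider interferon list was mixed. Of its 22 tested genes 5 were higher and 3 lower, with a median of 0.17, and 9 lay above all others, where 6.60%, 5.89% and 6.81% of all tested genes did. With the replicate block 8 were higher, and without Eµ-/- replicate 2 also 8. The number lower was 1 without either WT library or without line 1 replicate 1. Zbp1, a sensor of Z-form nucleic acid, stood at 6.08 and 8.76 FPKM in line 1 and at 1.44 to 3.33 elsewhere. Oas1a, an oligoadenylate synthetase, was lower in limma (difference -0.98, SE 0.09, adjusted p = 0.001) but stood at 0.0471 and 0.0390 FPKM in line 1 beside 0.0264 and 0.0631 in line 2, so the 2 lines shared its low level.

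Runs also lay on other chromosomes. On chromosome 9 (mm9 44980808 to 45218361) Tmprss4, BC049352, Il10ra, Fxyd6 and Fxyd2 lay above. Il10ra, the interleukin 10 receptor chain, stood at 13.8 and 11 FPKM in line 1, 2.04 and 1.57 in WT, 3.86 and 3.91 in line 2 and 6.49 and 9.92 in the Eµ-/- line. On chromosome 1 (mm9 40141612 to 40825730) Il1r2, Il18rap and Slc9a2 lay above, and both interleukin receptor genes were higher in replicate 2 of line 1 than in replicate 1. Il1r2, the decoy receptor for interleukin 1, stood at 2.14 and 4.84 FPKM in line 1, 1.51 and 1.95 in line 2 and 0.0483 to 0.177 in the rest. On chromosome 8 Cyp4f18 lay in a run with Olfr372, Olfr373 and Tpm4, and on chromosome 12 a run of 7 genes (Gm8300 to Gm5039) belongs to a family of near-identical copies whose reads can be shared. Below, on chromosome 15 (mm9 59480208 to 61821916), Trib1, Fam84b, 9930014A18Rik and Myc formed a run. Myc stood at 122 and 160 FPKM in line 1 and 165 to 227 in the others, so the gap was narrow and the line 1 libraries differed by more than it. In limma the difference of Myc was -0.48 (adjusted p = 0.098, and 0.021 with the replicate block).

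Adhesion genes were among those called. Of 17 tested genes 7 were higher (41.2%, against 6.60% of all tested genes) and 2 lower (against 5.89%, median 0.39). Itga6, the laminin receptor chain, stood at 41.5 and 53.9 FPKM in line 1 and 17.8 to 38.7 elsewhere. Itgb3, the beta chain of the vitronectin receptor, was below at 0.0974 and 0.121 FPKM against 0.370 to 2.11. The number higher was 4 without line 1 replicate 1, WT replicate 1 or line 2 replicate 1, and 3 without line 1 replicate 2, WT replicate 2 or line 2 replicate 2. The number lower was 1 without either WT library. With WT left out of the mean, 3 were higher and 1 lower. Among 13 BCL2 family genes 3 were higher and 0 lower in limma (5 and 1 at an unadjusted p under 0.05, median 0.28), with 5 higher and 1 lower under the replicate block, 1 higher without line 1 replicate 1 and 4 higher without either Eµ-/- library. With line 1 replicate 2, WT replicate 2 or line 2 replicate 2 left out, 2 were higher. With WT left out of the mean 0 were higher and 0 lower in limma (5 and 0 at an unadjusted p under 0.05). With the 6 other libraries as 1 group, 0 genes of the adhesion, BCL2, interferon and pro-B and pre-B surface lists were higher in limma (3, 2, 6 and 4 at an unadjusted p under 0.05). Over all tested genes 6.60% were higher and 5.89% lower. Of the 3, Bok, a BCL2 relative, stood at 31.1 and 21.8 FPKM in line 1, 31.2 and 27.7 in line 2, 9.60 and 4.17 in the Eµ-/- line and 0.278 and 0.211 in WT, so line 1 and line 2 overlapped. Pmaip1, given above, differed from line 2 by 0.18 and from the Eµ-/- line by 0.30 on the log2 scale (adjusted p = 0.68 and 0.45 in limma).

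Genes of the B lineage are read against 6.60% higher and 5.89% lower over all tested genes. Of 28 early B lineage transcription factor genes 2 were higher and 2 lower (median -0.01). Pou2af1, the B cell coactivator OCA-B, lay above at 661 and 571 FPKM against 323 to 540, and Irf4, a factor of pre-B and plasma cell stages, lay below at 17.2 and 21.8 against 27.2 to 34.1. Of 28 surface and signalling genes of pro-B and pre-B cells 6 were higher and 0 lower in limma (9 and 2 at an unadjusted p under 0.05, median 0.19), and with the replicate block 9 and 2. Without line 1 replicate 2, WT replicate 2 or line 2 replicate 2 that count was 2, and without WT replicate 1 or line 2 replicate 1 it was 3. It was also 2 with WT left out of the mean, and 3 with no filter or with a mean of 5 FPKM or more. Enpep and Cd38 were among the 6 but overlapped another line. Of 15 later B and plasma cell genes 2 were higher and 2 lower (median 0.44). Of 26 recombination and end joining genes 1 was higher and 1 lower, and of 21 CTCF, cohesin and looping genes 1 was higher (Esco1) and 1 lower. The latter was Wapal, the cohesin release factor, at 22.1 and 20.4 FPKM against 25.5 to 44.4. For these last 2 lists the counts, 3.85% and 4.76% each way, were near the shares over all tested genes.

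The remaining lists are read against the same shares, 6.60% higher, 5.89% lower and 6.81% above all others. Of 24 genes of the integrated stress response 0 were higher and 3 lower in limma (0 and 5 at an unadjusted p under 0.05), and none was a member. Their median difference was -0.70, but it was 0.27 with line 1 replicate 1 left out and -1.53 with replicate 2 left out, so the 2 line 1 libraries stood on opposite sides. Of 7 Hoxa cluster and stem cell factor genes 6 were lower, of which Hoxa9, Hoxa10 and Hoxa11 were listed at 0 in line 1 as in WT and were expressed in line 2. Hoxa10 stood at 6.80 and 8.23 FPKM there. The single member of that list, Pbx3, stood at 0.0899 and 0.128 FPKM in line 1 and 0.820 to 1.58 elsewhere. Of 23 STAT5 and JAK genes 3 were higher and 1 lower, and of 19 p53 target genes 3 were higher and 0 lower in limma, as at an unadjusted p under 0.05. With WT left out of the mean, 0 of the STAT5 and JAK genes were higher and 1 lower in limma (3 and 2 at an unadjusted p under 0.05). Of 21 class I presentation genes 0 were higher and 1 lower in limma (4 and 1 at an unadjusted p under 0.05), although 5 lay above all others (23.8%).

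Genes given in every case, whether members or not, showed where line 1 shared its level with another line. Cdkn2a, which codes for the p16INK4a and ARF tumour suppressors, stood at 17.4 and 26.8 FPKM in line 1, 20.1 and 26.5 in the Eµ-/- line, 143 and 144 in WT and 381 and 371 in line 2. It was lower than the mean of the others (difference -2.27, SE 0.17, limma adjusted p = 0.00038) but overlapped the Eµ-/- line and is no member. Its neighbours Cdkn2b (-0.24, adjusted p = 0.69) and Mtap (-0.25, adjusted p = 0.24, and 0.029 with the replicate block) did not pass in limma. Rag1, a subunit of the recombinase, was higher (1.56, SE 0.31, adjusted p = 0.021) at 13.8 and 7.41 FPKM in line 1, 8.72 and 3.77 in line 2, 5.83 and 7.53 in the Eµ-/- line and 0.0427 and 0.0295 in WT, so that the mutant lines overlapped. That call was lost without line 1 replicate 1 (adjusted p = 0.15 in limma), WT replicate 1 (0.057) or WT replicate 2 (0.060). Rag2 (0.19, adjusted p = 0.51), Ctcf (0.09, 0.74), Pax5 (-0.14, 0.61), Ebf1 (-0.08, 0.77), Il7r (0.21, 0.75) and Trp53 (-0.09, 0.46) did not pass in limma.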

How the data were processed

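Poly(A) RNA of 8 libraries from 4 pro-B lines was measured. The deposited values are FPKM per gene with an interval and a quantification status, per the file headers. TopHat, Cufflinks and mm9 are named in the submitters' processing notes, and their versions, settings and strand handling are not stated there. Each library held 24459 entries under 23929 symbols. FPKM of 277 symbols at several loci were summed, 21 symbols with a status other than OK were left out, and 1087 on X or Y were set aside. Reads were inferred from the intervals, taken as 2 SD on each side, and the limits of depth cover counting error only.

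Genes at 1 FPKM or more in at least 2 libraries (10479, of which 10146 are not on X or Y) entered limma 3.58.1 (R 4.3.3) as log2(FPKM + 1). The fit had a trend of variance on level, residual degrees of freedom of 4 and prior ones of 2.65, and p-values took a Benjamini-Hochberg adjustment over the 10479. On this scale, changes of weakly expressed genes are understated. Calls have an adjusted p under 0.05. Values are in FPKM, per length, and the fit was tested on simulated data. Named genes are the 12 members above and 12 below with the widest gap among called genes that are not transcript models, at most 4 called genes from any list, genes in runs of 3 or more members, and 10 given in every case. Genes on or off in line 1, and Kif13a, Ticam2 and Psmg2 among the runs, were picked after their values were seen. Some genes that the rule names are not reported here. The members and the gene lists were chosen with earlier results of these data known.

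Replicate numbers were not part of the main fit, so its counts, SEs and p-values leave out any pairing of libraries. They entered as a block in an alternative only. Libraries of 1 number deviated from their line means together in all 6 pairs of lines (r of 0.28 to 0.50 across tested genes). Promoter windows are RefSeq sequences of GRCm38.p6, matched by symbol or synonym for 8086 of the 10146 tested genes, and none of their coordinates were used with those of mm9. Alternatives were pseudocounts of 0.1 and 5, no trend, a robust prior, the replicate block, a minimum change of 1, the other lines as 1 group, the mean without WT, no filter, a mean of 5 FPKM or more, 3 scalings, other statuses kept, a gap of at least 0.5, and leaving out each library in turn.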

Additional observations from a re-analysis of the deposited data

How the results depend on the processing

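With the replicate block, 1038 genes were higher and 961 lower than the mean of the other lines, and 835 and 838 against line 2, and with that pairing Mtap and Myc passed (adjusted p = 0.029 and 0.021 in limma). It changed no other call among the 10 genes always given. A minimum change of 1 left 202 and 112, and 164 and 207 against line 2. With a mean of 5 FPKM or more there were 295 and 178, and 220 and 139 against line 2, and 468 members lay above and 403 below. With the other lines as 1 group 27 were higher and 13 lower. Without a filter 833 were lower than line 2. A gap of 0.5 or more left 121 and 52 members. With 1 library left out the counts ran from 329 to 843 higher and 256 to 722 lower, 126 to 660 and 116 to 665 against line 2, and 1042 to 2316 members above and 944 to 2485 below, the highest of these without a line 1 library, when the rule has 1 value fewer to meet. A line left with 1 library was assumed to vary like the others. The cause of these changes was not tested, apart from fewer genes or libraries entering the fit.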
